A study of Mus musculus with 9 samples.

Results

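The GIMAP family comprises GTPases of the immunity-associated protein type, small GTP-binding proteins that lymphocytes carry on intracellular membranes and that are known for keeping resting T and B cells alive. The genes were chosen by symbol, and 8 members, Gimap1 and Gimap3 to Gimap9, were found among the 37022 genes with a measured row. All of them passed the filter on low values in both tables described below. Family members bind GTP through a shared domain and act on one another by pairing, and loss of Gimap1 in mice, or of Gimap5 in mice and rats, is known to deplete peripheral lymphocytes. Gimap3 and Gimap5 are known to bind proteins of the BCL-2 family, which control cell death, Gimap6 is known to bind GABARAP proteins of the autophagy pathway, and Gimap4 has been tied to the death and cytokine secretion of T cells.

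Nascent RNA of mouse CD8+ T cells was compared between 3 groups of 3 libraries: acutely stimulated cells (Acute), chronically stimulated cells (Chronic), and chronically stimulated cells under an inhibitor of MEK, which activates ERK in the RAS cascade (ChronicMEKi). Live cells had been given 0.2 mM 5-ethynyl uridine for 30 minutes, after which RNA made in that time was captured and sequenced. The labels name no strain, genotype, age, inhibitor, dose or length of stimulation for any group, and none of the libraries is unstimulated. Nothing in them says that replicates came from separate cultures or animals, so p-values measure only the spread between these libraries, which may be technical.

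The deposited signal covers 2 regions per transcript, read here as the gene body and the pause region near the start, where RNA polymerase II often halts before elongation. Gene-body signal summed over genes ranged from 48601757 to 52216192 per library, and depth in reads is unknown. Rows resembling ribosomal RNA held a mean of 20.7% of that total in acute libraries (SD 1.63, n = 3), 37.0% in chronic ones (SD 3.30) and 31.6% in MEK-inhibited ones (SD 3.92), so libraries were scaled on the bulk of genes by a trimmed mean of log ratios. All 9 markers of CD8+ T cells were present, with summed scaled signal of 36674 to 44949 in acute, 25686 to 26254 in chronic and 34723 to 37374 in MEK-inhibited libraries. Cd8a itself, a chain of the CD8 co-receptor, averaged 4061, 969 and 2881. Of the markers of CD4+ T cells, the co-receptor gene Cd4 averaged 442, 234 and 116 and the lineage factor Zbtb7b 789, 1002 and 1769. Summed B cell markers stood at 541 to 573 in acute, 195 to 250 in chronic and 169 to 461 in MEK-inhibited libraries, with Cd79a the highest of the 6, averaging 335, 106 and 153, and Ms4a1 averaging under 16 in each group. The 6 myeloid markers summed to between 96.1 and 256 and the 3 natural killer cell markers to between 51.8 and 191 in any library, and no marker of any list was at 0 in all libraries. Of the 4 endothelial markers Pecam1, which T cells also express, averaged 6554, 3931 and 5623, while Cdh5 and Kdr averaged under 25, and the 3 erythroid markers summed to 29.7 or less in any library. CD4+ T cells and B cells also express Gimap genes, and the part of their RNA in the results below was not tested. In bulk libraries fewer cells of a type and less RNA per cell cannot be told apart.

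All 8 members lie within one stretch of mouse chromosome 6, between 48647234 and 48770851 on build GRCm38, in the order Gimap8, Gimap9, Gimap4, Gimap6, Gimap7, Gimap1, Gimap5 and Gimap3. Gimap6 (48701582 to 48708225) and Gimap3 (48764464 to 48770851) are on the minus strand and the other members on the plus strand. Gimap8, Gimap9, Gimap4, Gimap6 and Gimap3 overlap no other annotated gene. The readthrough gene Gm28053 (48718607 to 48752644, plus strand) spans Gimap7 (48718621 to 48724636), Gimap1 (48739054 to 48743795) and most of Gimap5 (48746197 to 48754210), and Gimap1os lies on the opposite strand of Gimap1. Use of strand in counting is not given in the sources used here, so the values of those 3 members are less certain than the others. Members also resemble one another in sequence, Gimap3 and Gimap5 most closely, and how reads that match several of them were assigned is not given either.

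The 250 bases before the start site are shown for Gimap3 and Gimap4, the members with the largest falls in gene-body signal under chronic stimulation, and for Gimap1 and Gimap9, which did not pass that test. Capitals mark matches, on either strand, to core motifs of T cell transcription factors. Sequences are from RefSeq on build GRCm38.p6, 5′ to 3′ on the gene's strand, at chr6:48770852-48771101 (minus), chr6:48684328-48684577 (plus), chr6:48738797-48739046 (plus) and chr6:48675885-48676134 (plus), in that order.
Gimap3: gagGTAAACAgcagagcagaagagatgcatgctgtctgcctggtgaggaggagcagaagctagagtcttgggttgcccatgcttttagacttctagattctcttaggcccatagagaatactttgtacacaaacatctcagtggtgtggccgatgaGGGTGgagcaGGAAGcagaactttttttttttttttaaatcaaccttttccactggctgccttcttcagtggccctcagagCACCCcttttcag
Gimap4: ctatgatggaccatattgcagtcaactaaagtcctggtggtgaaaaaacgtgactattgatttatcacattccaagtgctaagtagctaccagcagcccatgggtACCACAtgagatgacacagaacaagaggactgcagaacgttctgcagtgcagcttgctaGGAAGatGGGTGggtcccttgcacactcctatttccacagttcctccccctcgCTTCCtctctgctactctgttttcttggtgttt
Gimap1: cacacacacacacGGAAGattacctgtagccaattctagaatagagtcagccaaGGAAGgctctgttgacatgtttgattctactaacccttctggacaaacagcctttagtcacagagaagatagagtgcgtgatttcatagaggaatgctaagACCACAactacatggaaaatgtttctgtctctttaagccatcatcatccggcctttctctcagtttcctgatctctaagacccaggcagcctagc
Gimap9: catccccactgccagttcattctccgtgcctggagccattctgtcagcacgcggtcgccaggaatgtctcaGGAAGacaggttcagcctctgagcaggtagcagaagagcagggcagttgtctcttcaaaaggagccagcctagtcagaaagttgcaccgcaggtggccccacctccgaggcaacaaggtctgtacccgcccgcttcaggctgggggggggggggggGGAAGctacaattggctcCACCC

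Each motif was searched on both strands of the 250 bases, without regard to overlaps with the others, and its share is over 32851 promoters of the same length. The core bound by ETS factors, searched as GGAAG, was found in all 8 members' windows and in 64.1% of promoters. The core bound by KLF factors, searched as CACCC, was found in 5 of 8 members and in 52.0% of promoters. The RUNX motif, searched as TGTGGT, was found in Gimap4, Gimap7 and Gimap1 and in 14.0% of promoters. The FOXO motif, searched as GTAAACA, was found in Gimap3 alone among the members and in 3.17% of promoters. The core of the promoter box bound by TBP, searched as TATAAA, was found in Gimap6 alone among the members and in 12.4% of promoters. The motif of the GATA3 family, searched as GATAAG, was found in 0 of 8 members and in 6.55% of promoters. Gimap3, Gimap4 and Gimap9 all hold the ETS and KLF letters, so these did not separate members with a fall from those without a call. A match is a description of letters, not of a bound site.

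Under chronic stimulation the gene-body signal of 6 of the 8 members was lower than under acute stimulation. Gimap3, a survival-linked member that binds BCL-2 family proteins, fell the most, and Gimap4, Gimap6, Gimap5, Gimap7 and Gimap8 fell by less. Gimap1 and Gimap9 did not pass the test. Over all 15942 genes tested, 15.9% were called lower in this comparison and 33.9% were called in either direction, by limma at an adjusted p under 0.05. The members' median log2 fold change was -0.70, beside -0.02 over all genes tested. For each of these 6 members all chronic libraries were below all acute ones, as they were for 21.9% of all genes tested.

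In the 3 acute libraries Gimap3 stood at a scaled gene-body signal of 6386, 6417 and 6782, and in the 3 chronic libraries at 2493, 2866 and 2433. Every acute library was thus above every chronic one. Its log2 fold change, here and below on the log2(signal + 5) scale, was -1.33 ± 0.094 (SE, limma adjusted p = 3.35e-09), a level 2.52-fold lower.

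Gimap4, the member tied to T cell death, stood at 6872, 6414 and 7156 in acute and at 2923, 3727 and 3982 in chronic libraries. Its log2 fold change was -0.95 ± 0.110 (SE, limma adjusted p = 2.08e-06), or 1.94-fold lower. Gimap6, the partner of GABARAP proteins, stood at 3094, 3081 and 3240 in acute and at 1351, 1728 and 1885 in chronic libraries. It was 1.91-fold lower (log2 -0.94 ± 0.130, SE, limma adjusted p = 1.72e-05). In both genes Chronic replicate 1 was the lowest of its group, and the groups did not overlap.

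Gimap5, whose loss depletes T cells in mice and rats, stood at 4026, 4245 and 4122 in acute and at 1977, 2603 and 3149 in chronic libraries. The chronic values were far more spread (SD 586) than the acute ones (SD 109.7), yet all lay below them. Its log2 fold change was -0.71 ± 0.142 (SE, limma adjusted p = 0.000871). Gimap7, whose human counterpart pairs with and activates other family members, stood at 2124, 1976 and 2182 in acute and at 1433, 1178 and 1295 in chronic libraries, which was 1.61-fold lower (log2 -0.69 ± 0.123, SE, limma adjusted p = 0.000256). Gimap8, which carries several GTP-binding domains in 1 protein, stood at 4869, 4211 and 5001 in acute and at 2759, 3597 and 3241 in chronic libraries. Its fall was the smallest of the 6, at log2 -0.56 ± 0.107 (SE, limma adjusted p = 0.000502).

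Gimap1, which peripheral T and B cells need to survive, stood at 2164, 2626 and 2965 in acute and at 2388, 2137 and 2888 in chronic libraries. These ranges overlapped almost fully, and the log2 fold change was -0.06 ± 0.130 (SE, limma adjusted p = 0.738). Gimap9, among the least studied members, stood at 1266, 1600 and 1780 in acute and at 1509, 1680 and 2258 in chronic libraries, again overlapping, at log2 0.22 ± 0.160 (SE, limma adjusted p = 0.310). Neither p shows that the level was the same.

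**Figure D1:**
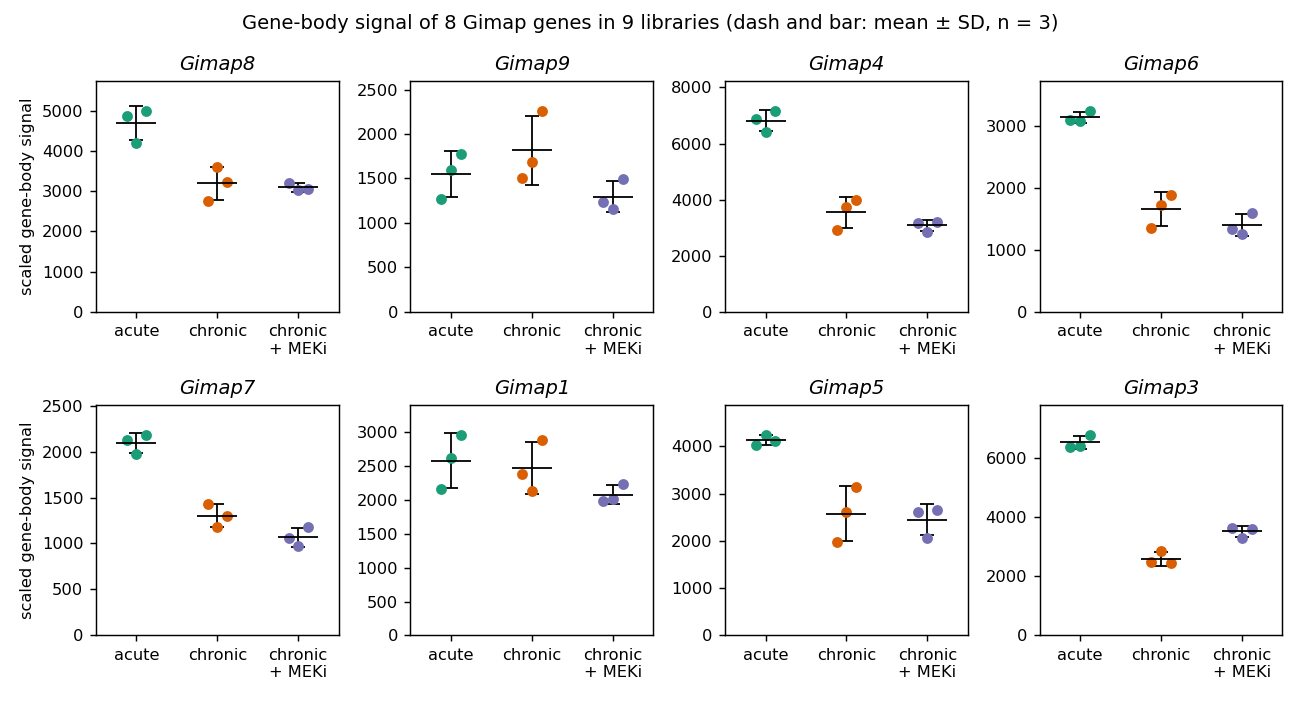
Scaled gene-body signal (y axis, from 0, own scale per panel) of each Gimap gene in the acute, chronic and MEK-inhibited chronic libraries (x axis). Points are single libraries, dashes and bars the mean ± SD of 3 libraries. In 6 panels every acute point lies above every chronic point, in Gimap1 and Gimap9 the 2 groups overlap, and in Gimap3 the MEK-inhibited points lie between the other groups.

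These fold changes depend on how libraries are scaled, which shifted the log2 value of the median gene by -0.48 with library totals, by -0.47 on the deposited scale and by -0.16 with totals that leave out the ribosomal RNA-like rows. Over all genes the split was 2875 higher and 2528 lower calls as scaled here, against 1096 and 6846 with totals, 1134 and 6713 as deposited, and 2096 and 3759 without the ribosomal RNA-like rows. The 6 falls were called under each of these scalings. Gimap1 was called lower with totals (log2 -0.55, limma adjusted p = 0.00306) and as deposited (log2 -0.54, limma adjusted p = 0.00369), and Gimap9 turned to log2 -0.27 and -0.25 without a call. The family's share of all deposited gene-body signal, which is the scaling to library totals in another form, had a mean of 0.0771% over acute (SD 0.00778, n = 3), 0.0331% over chronic (SD 0.00115) and 0.0336% over MEK-inhibited libraries (SD 0.00170). Without the ribosomal RNA-like rows the shares were 0.0972% ± 0.00780, 0.0527% ± 0.00454 and 0.0492% ± 0.00247. By either share all acute libraries were above all others.

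**Figure D2:**
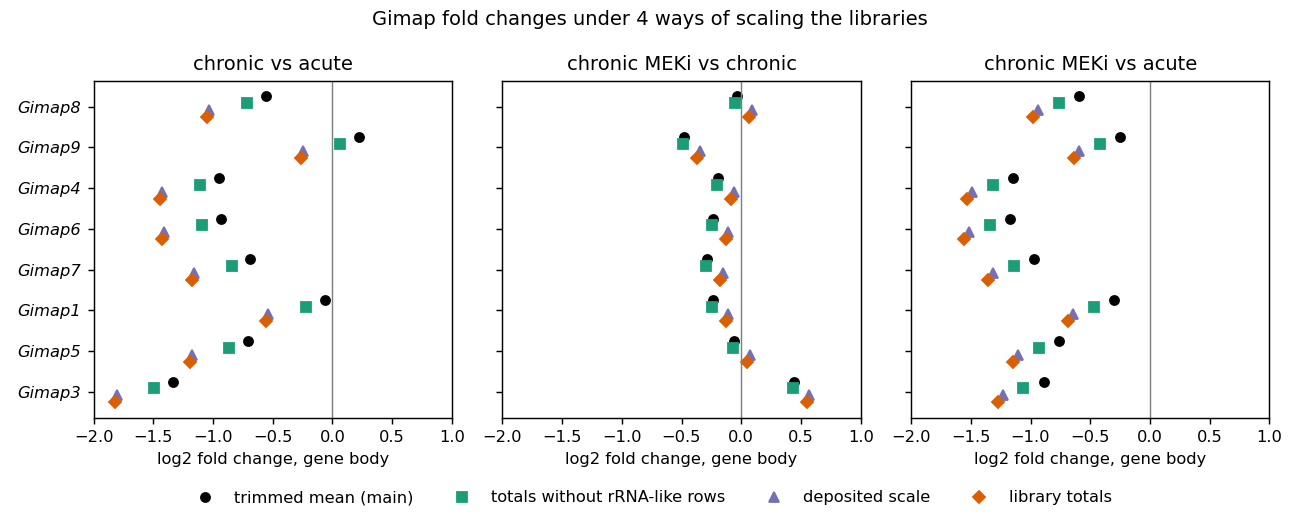
Gene-body log2 fold change (x axis) of each Gimap gene (y axis, in order along the cluster) in 3 comparisons under 4 scalings of the libraries, 1 symbol per scaling. Gimap3, Gimap4, Gimap5, Gimap6, Gimap7 and Gimap8 stay left of 0 against acute under each scaling, while Gimap9 in chronic versus acute lies on either side of 0, from 0.22 to -0.27.

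MEK inhibition during chronic stimulation moved 2 of the 8 members, in opposite directions. Gimap3 rose and Gimap9 fell. Over all genes tested, 9.93% were called higher and 7.65% lower in this comparison, 17.6% in all, so 1 member of 8 in each direction is near the background. The members' median log2 fold change was -0.21, beside 0.04 over all genes. The inhibitor's effect was visible in known outputs of the pathway: Dusp6 and Spry2, feedback inhibitors of ERK signalling, and Etv5, an ETS factor that ERK induces, were lower at log2 -3.52, -1.43 and -3.80.

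Gimap3 stood at 3647, 3298 and 3613 in MEK-inhibited libraries, above all 3 chronic and below all 3 acute libraries. Against chronic stimulation alone it was 1.36-fold higher (log2 0.44 ± 0.094, SE, limma adjusted p = 0.00249). Against acute stimulation it remained lower, at log2 -0.89 (limma adjusted p = 1.11e-06). With no filter on low values the rise over chronic libraries was smaller, at log2 0.37 (limma adjusted p = 0.131), in a fit over more genes.

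Gimap9 stood at 1230, 1158 and 1491 in MEK-inhibited libraries, below all 3 chronic libraries, the nearest of which was at 1509. Its log2 fold change was -0.48 ± 0.160 (SE, limma adjusted p = 0.0492), or 1.39-fold lower. This call was lost without Chronic replicate 2 (adjusted p = 0.0834), Chronic replicate 3 (0.214), ChronicMEKi replicate 1 (0.102) or ChronicMEKi replicate 2 (0.158), and with library totals (0.127), the deposited scale (0.151), a pseudocount of 0.5 (0.0510), no filter (0.142) or plain moderation in limma (0.168).

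The other 6 members did not pass the test, with log2 fold changes from -0.28 (Gimap7, limma adjusted p = 0.131) to -0.04 (Gimap8, limma adjusted p = 0.873). Gimap5 and Gimap8 were above 0 with library totals (0.048 and 0.068) and as deposited (0.072 and 0.092), likewise without a call. Gimap4 stood at 3176, 2843 and 3217 and Gimap6 at 1336, 1259 and 1596 in MEK-inhibited libraries, within or just below their chronic ranges. Without Chronic replicate 1, the lowest chronic library for both, they were called lower, at log2 -0.33 (limma adjusted p = 0.0346) and -0.38 (limma adjusted p = 0.0474), which raised the count of members called from 2 to 4. Over all genes 2666 of 15810 were then called, of which 1140 were lower.

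Between chronic stimulation with MEK inhibition and acute stimulation, 6 of 8 members were lower, where 11.5% of all genes tested were called lower. That background depended on the scaling: 1827 of 15942 genes were called lower as scaled here, against 4965 with library totals, 4542 as deposited and 3151 without the ribosomal RNA-like rows. This comparison shares its acute libraries with chronic versus acute. The largest differences were in Gimap6 (log2 -1.17 ± 0.130, SE, limma adjusted p = 1.94e-06) and Gimap4 (log2 -1.15 ± 0.110, SE, limma adjusted p = 3.58e-07). Gimap7 followed at -0.97, Gimap3 at -0.89, Gimap5 at -0.76 and Gimap8 at -0.60. Gimap1 (log2 -0.30, limma adjusted p = 0.102) and Gimap9 (log2 -0.25, limma adjusted p = 0.280) were not called. Gimap1 was called lower without Acute replicate 1 (log2 -0.48, limma adjusted p = 0.0185), and both were called lower under the other 3 scalings.

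**Figure D3:**
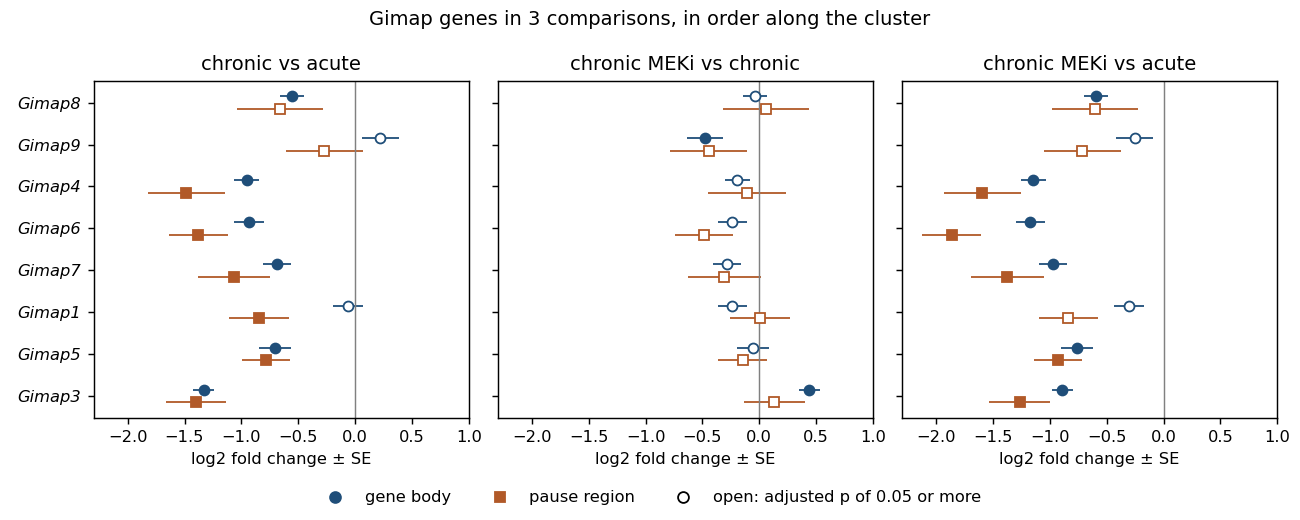
Log2 fold change ± SE (x axis) of each Gimap gene (y axis, in order along the cluster) in 3 comparisons, as circles for the gene body and squares for the pause region. Filled symbols have a limma adjusted p under 0.05. In the left and right panels most symbols are filled and left of 0, and in the middle panel Gimap3 and Gimap9 in the gene body are the filled ones.

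The make-up of the family's signal differed between groups, given here as a description with no test. Each member's share of the 8 genes' summed gene-body signal needs no scaling between libraries, although the shares of one library sum to the whole and so cannot move independently. The share of Gimap3 over acute libraries averaged 20.7% ± 0.292 (SD, n = 3), over chronic ones 13.7% ± 1.87 and over MEK-inhibited ones 19.6% ± 0.541. Its 3 chronic libraries, at 14.8%, 14.7% and 11.5%, were below all 6 others. Gimap9 made up 4.90% ± 0.687, 9.42% ± 1.11 and 7.17% ± 0.579, and these 3 groups did not overlap. Gimap1 made up 8.18% ± 1.01, 12.9% ± 1.74 and 11.6% ± 0.648, with all acute libraries below the rest. Gimap4 went from 21.6% ± 0.668 to 18.4% ± 0.935 and 17.1% ± 0.255. Gimap5 held 13.1%, 13.3% and 13.6%.

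**Figure D4:**
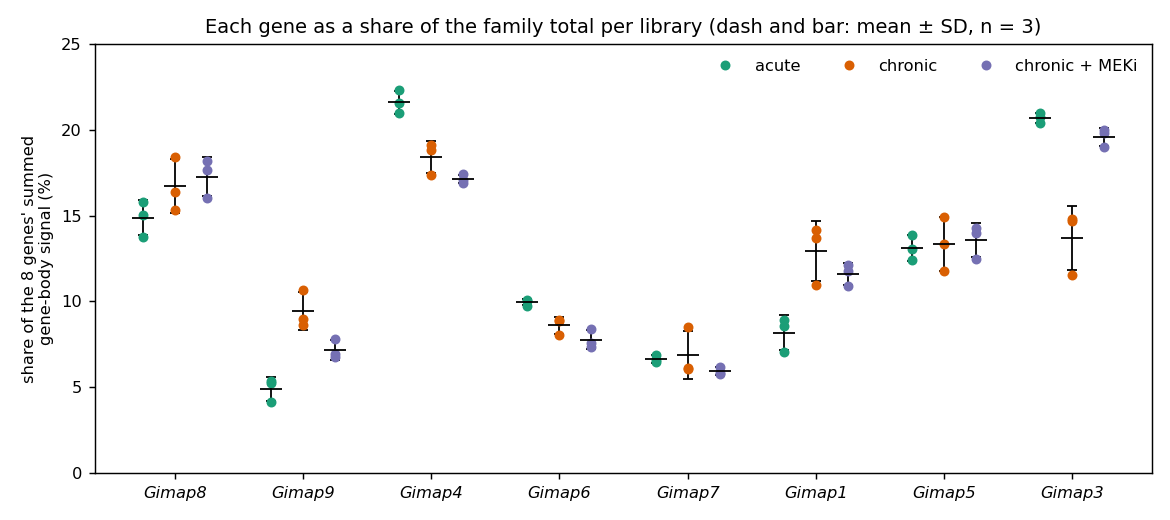
Share of the 8 genes' summed gene-body signal (y axis, percent) held by each Gimap gene (x axis), with points for single libraries and dashes and bars for the mean ± SD of 3 libraries. Gimap3 dips in chronic libraries (13.7%) and stands near its acute share (20.7%) with MEK inhibition (19.6%), while Gimap9 is highest in chronic libraries (9.42%).

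Levels of different genes are compared per kilobase of the measured transcript, in scaled gene-body signal. In acute libraries Gimap3 led with 1022 ± 34.4 per kb (SD, n = 3), followed by Gimap4 at 911 ± 50.1, Gimap9 at 602 ± 101.5, Gimap1 at 546 ± 84.9, Gimap5 at 515 ± 13.7, Gimap6 at 472 ± 13.3, Gimap7 at 348 ± 17.6 and Gimap8 at 347 ± 31.3. Neighbours in this order overlapped between Gimap9, Gimap1 and Gimap5 and between Gimap7 and Gimap8, and were apart elsewhere. In chronic libraries Gimap9 led with 706 ± 153, then Gimap1 at 522 ± 80.7, Gimap4 at 474 ± 73.8 and Gimap3 at 407 ± 36.8. Gimap5 (321 ± 73.1), Gimap6 (249 ± 41.4), Gimap8 (237 ± 31.1) and Gimap7 (216 ± 21.2) came after them, and every pair of neighbours in the chronic order overlapped. In MEK-inhibited libraries Gimap3 was first again at 551 ± 30.1, before Gimap9 at 503 ± 68.3, Gimap1 at 440 ± 29.7 and Gimap4 at 411 ± 27.4, each overlapping the next, while Gimap5 at 305 ± 40.6 was apart from its neighbours on both sides. Gimap8 at 229 ± 7.86, Gimap6 at 210 ± 26.6 and Gimap7 at 178 ± 17.4 closed the order, each overlapping the next.

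The pause region near the start site gave falls in 6 of 8 members under chronic stimulation, where 5.35% of 7678 genes tested were called lower. The members' median log2 fold change was -0.96, beside 0.01 over all genes. Gimap6 stood at 710, 369 and 825 in acute and at 208, 236 and 240 in chronic libraries, which was 2.60-fold lower (log2 -1.38 ± 0.258, SE, limma adjusted p = 0.000443). Gimap3 stood at 388, 334 and 520 in acute and at 101, 176 and 192 in chronic libraries, which was 2.64-fold lower (log2 -1.40 ± 0.266, SE, limma adjusted p = 0.000543). Gimap4 was 2.80-fold lower (log2 -1.48 ± 0.341, SE, limma adjusted p = 0.00371), and these 3 falls were called without each library in turn. Their groups did not overlap, nor did those of Gimap5. The share of all genes without overlap was not computed for the pause region.

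Gimap5, Gimap1 and Gimap7 made up the other pause-region calls, at log2 -0.78, -0.85 and -1.06 (limma adjusted p = 0.0152, 0.0355 and 0.0286), and they were less firm. Gimap1 stood at 666, 485 and 1007 in acute and at 250, 403 and 547 in chronic libraries, which overlapped. Without Acute replicate 1, Acute replicate 3 or Chronic replicate 1 all 3 calls were lost and 3 members were left. The adjusted p values of Gimap1 were then 0.0918, 0.211 and 0.238, those of Gimap5 were 0.0856, 0.0848 and 0.0752, and those of Gimap7 were 0.189, 0.0617 and 0.0962. Gimap1 was also lost without Chronic replicate 2 (0.0742) and Gimap7 without Chronic replicate 3 (0.134), and both with totals that leave out the ribosomal RNA-like rows (0.0620 and 0.0563). Gimap8 (log2 -0.66, limma adjusted p = 0.307) and Gimap9 (log2 -0.27, limma adjusted p = 0.701) were not called, although Gimap8 was called lower with library totals (log2 -1.26, limma adjusted p = 0.0104). The pause-region value of Gimap7 was identical to that of Gm28053 in 9 of 9 libraries, and their starts lie 14 bases apart. The start of Gimap1 (48739054) lies inside Gimap1os (48738346 to 48741444), which is on the opposite strand. Use of strand is not given, and the part of Gimap1os in the pause-region value of Gimap1 was not tested.

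No member's pause region was called for MEK inhibition against chronic stimulation, where 3% of all genes were called by limma (1.56% higher and 1.43% lower), and no member had an unadjusted p under 0.05, that is 0 of 8. Over all genes 1066 of 7678 had an unadjusted p under 0.05. Gimap3, the member that rose in the gene body, stood at 177, 162 and 160 in the MEK-inhibited pause region, within its chronic range, at log2 0.13 ± 0.266 (SE, limma adjusted p = 0.883). Against acute libraries 5 of 8 members were lower in the pause region with MEK inhibition (2.51% of genes), led by Gimap6 at log2 -1.86 ± 0.258 (SE, limma adjusted p = 2.59e-05). Gimap4 (-1.59), Gimap7 (-1.37), Gimap3 (-1.27) and Gimap5 (-0.93) were the others, of which Gimap5 lost its call without ChronicMEKi replicate 1 (adjusted p = 0.0730) and Gimap7 without Acute replicate 1 (adjusted p = 0.0791). Gimap1 just missed the threshold (log2 -0.84, limma adjusted p = 0.0563) and was called without Acute replicate 2 (adjusted p = 0.0152), Chronic replicate 1 (0.0354) or Chronic replicate 3 (0.0350), where the chronic libraries enter through the shared estimate of the spread.

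The ratio of pause-region to gene-body signal compares labelled RNA between regions whose coordinates are not given. Polymerase held near the start was not measured. The ratio was called by limma for 0 of 8 members in each of the 3 comparisons. Calls over all 7413 genes tested were as rare, at 0.054%, 0.0135% and 0%. At an unadjusted p under 0.05 there was 1 member in chronic versus acute (Gimap1, log2 -0.78 ± 0.293, SE, limma adjusted p = 0.360), 0 with MEK inhibition versus chronic, and 1 with MEK inhibition versus acute (Gimap6, log2 -0.69 ± 0.296, SE, limma adjusted p = 0.502). Over all 7413 genes 830, 421 and 659 were under that threshold, so 1 member of 8 is near the background. All 8 members' ratios were below 0 on the log2 scale in both comparisons with acute libraries, with medians of -0.41 and -0.43 beside -0.04 and -0.03 over all genes. The sign depended on the scaling, which moved the ratios of all genes as well. As deposited, 4 and 3 of the 8 were below 0, with medians of -0.016 and 0.037 beside 0.35 and 0.43 over all genes. Without the ribosomal RNA-like rows 5 and 6 were, with medians of -0.15 and -0.14 beside 0.22 and 0.25. With library totals 8 and 7 were, with medians of -0.51 and -0.38 beside -0.13 and 0.03. The members' medians were below those of all genes under each scaling. Pause-region signal varied widely between acute replicates, for Gimap4 from 161 to 370.

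Other annotated transcripts of the members gave a finer view. The tables hold 30 rows for the 8 genes, between 2 and 6 a gene, many of them sharing most of their bases. The difference in mean log2 signal between chronic and acute libraries was below 0 in 27 of the 30 rows. The 3 rows above 0 were both Gimap9 rows (0.21 and 0.22) and 1 Gimap1 row. That Gimap1 row (48742182 to 48743795), at the 3′ end, stood at 638, 855 and 895 in acute and at 1027, 888 and 1079 in chronic libraries, a difference of 0.34. Rows of Gimap1 that stop short of this end differed by -0.29, -0.30 and -0.41, and the whole-gene rows by -0.06. These are values as scaled here: with library totals the 3′ row stood at -0.15 and as deposited at -0.14, and under both all 30 rows were below 0. The difference between the 5′ and 3′ rows was not tested. Gimap1os (48738346 to 48741444, opposite strand, log2 -0.46 for chronic against acute) overlaps the 5′ rows of Gimap1 but not the 3′ row. Use of strand in counting is not given, and the part of Gimap1os in the 5′ rows was not tested.

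For Gimap3 the whole-gene row and a row over its last 2.49 kb (48764466 to 48766958) gave like differences between chronic and acute libraries, -1.33 and -1.46. As scaled here these 2 of the 30 rows were above 0 for MEK inhibition against chronic stimulation, at 0.44 and 0.78, while with library totals and as deposited 9 rows were, those of Gimap3, Gimap5 and Gimap8. In the shorter row the MEK-inhibited libraries stood at 1358, 1266 and 1370, above the chronic ones at 703, 813 and 808 and below the acute ones at 2171, 2204 and 2022. Rows of Gimap4, Gimap5 and Gimap8 differed little among themselves (-0.95 to -0.94, -0.71 to -0.63 and -0.56 to -0.55 for chronic against acute).

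Signal past the annotated end of Gimap7 was taken as the difference of 2 rows of nested length, a longer Gm28053 row and the Gimap7 row. This assumes that the regions counted for both rows begin alike, which the sources used here do not state. The 5.127 kb after that end averaged 1346 ± 177 in scaled signal over acute libraries (SD, n = 3), 670 ± 72.7 over chronic and 627 ± 126 over MEK-inhibited ones. All acute libraries were above all others. Per kilobase this was 263, 131 and 122, beside 348, 216 and 178 in the Gimap7 row. As a percentage of the Gimap7 row the stretch held 64.1 ± 5.36 in acute, 52.2 ± 10.7 in chronic and 58.6 ± 9.45 in MEK-inhibited libraries, and these overlapped. Signal of Gimap1 and Gimap5, which lie farther along the same strand, could include such readthrough, and its part in their values was not tested.

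Genes beside the cluster did not move with it in one direction. Within the cluster 4 non-member genes were tested, and Gm28053, which shares sequence with 3 members, was lower in chronic libraries (log2 -0.50 ± 0.100, SE, limma adjusted p = 0.000780). Gimap1os (-0.46, limma adjusted p = 0.0558), Gm44226 (-0.41, 0.335) and 4833403J16Rik (-0.22, 0.721) were not called. In the 200 kb before Gimap8, 3 of 9 tested genes were called higher (18% of all genes) and 1 lower under chronic stimulation. Zfp775, a zinc finger gene, was higher at log2 1.04, as were the overlapping Gm44965 (0.55) and Gm45021 (0.42), and Lrrc61 was lower at -0.84. These are values as scaled here. Library totals shifted the median gene by -0.48, a shift larger in size than the rise of Gm45021 and near that of Gm44965 (0.55 ± 0.156, SE). Rarres2, the chemerin gene, stood at -1.42 without a call (limma adjusted p = 0.0513). With MEK inhibition against chronic stimulation limma called 0 of these 13 genes. Against acute libraries MEK-inhibited ones had 3 of the 4 genes within the cluster lower (11.5% of all genes), Gm28053 at log2 -0.71, Gm44226 at -1.01 and Gimap1os at -0.66. Of the 9 genes before the cluster 4 were higher, where 2291 of 15942 genes were, and 0 lower, as scaled here. These 4, Gm45021, Repin1, Gm44965 and Zfp775, are linked by overlaps on the same strand, so their values are not independent. In the 200 kb after Gimap3 none of the 8 genes with a row passed the filter.

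**Figure D5:**
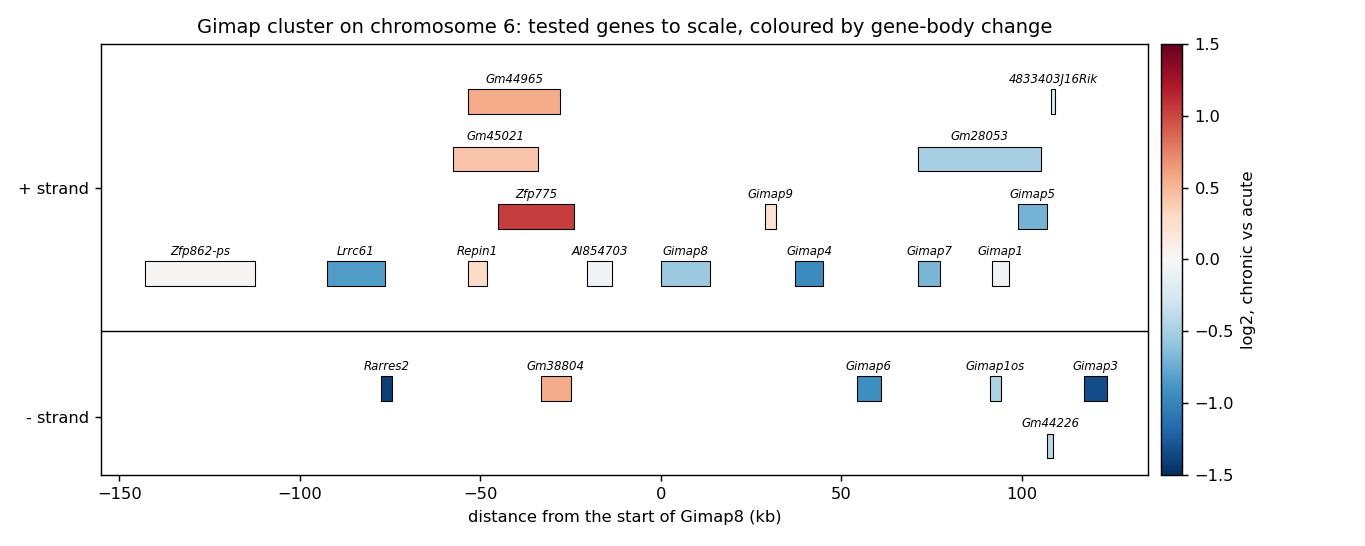
Map of the tested genes of the Gimap cluster and the 200 kb around it, to scale, with distance from the start of Gimap8 in kb (x axis), the strand (y axis) and colour for the gene-body log2 fold change, chronic versus acute. Members other than Gimap1 and Gimap9 are blue (lower), as is the spanning Gm28053, while genes before the cluster range from Rarres2 (-1.42) to Zfp775 (1.04).

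Genes of pathways in which GIMAP proteins take part showed mixed changes in gene-body signal. Over all genes tested, 18% were called higher and 15.9% lower under chronic stimulation. With MEK inhibition 9.93% and 7.65% were against chronic libraries, and 2291 and 1827 of 15942 genes against acute ones. Lower calls over all genes, chronic against acute, were more frequent with library totals (6846) and as deposited (6713). Of 11 BCL-2 family genes, all tested, 4 were higher and 2 lower under chronic stimulation, with a median log2 fold change of 0.07. Bcl2, the survival protein that Gimap3 and Gimap5 are known to bind, was lower (-0.99 ± 0.098, SE, limma adjusted p = 2.81e-07), as was the death activator Bcl2l11 (-0.49, limma adjusted p = 0.0110). The death activators Pmaip1 (1.22) and Bbc3 (0.75) were the largest called rises, and Bcl2a1d stood at 1.01 without a call (limma adjusted p = 0.0571). The split depended on the scaling, with 1 higher and 6 lower both with library totals and as deposited, where the call of Bbc3 was lost (adjusted p = 0.184 and 0.163), and 3 higher and 4 lower without the ribosomal RNA-like rows. With MEK inhibition 4 of the 11 were higher and 1 lower than in chronic libraries, among them Bbc3 (1.10) and Bcl2l11 (0.81), and Bcl2a1d was lower (-2.07). Bcl2 itself stood at 0.19 (limma adjusted p = 0.228). Against acute libraries, MEK-inhibited ones had 4 higher, led by Bbc3 (1.85) and Pmaip1 (1.76), and Bcl2 lower at -0.80, and under each of the other 3 scalings 3 were higher and 4 lower.

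Of 12 autophagy genes around GABARAP and LC3, 11 were tested, and 2 were higher and 3 lower under chronic stimulation (18% and 15.9% of all genes). Gabarapl2, a reported partner of Gimap6, was lower (-0.61 ± 0.158, SE, limma adjusted p = 0.00581), whereas its relative Gabarapl1 was higher (0.82, limma adjusted p = 0.000583), as was the cargo receptor Sqstm1 (0.71). Atg12 (-0.46) and Atg16l1 (-0.30), parts of the machinery that attaches LC3 to membranes, were lower. With library totals or as deposited the split was 0 higher and 6 lower, where 6846 and 6713 of all 15942 genes were called lower. The calls of Gabarapl1 (adjusted p = 0.118 and 0.0979) and Sqstm1 (0.225 and 0.197) were then lost. With MEK inhibition against chronic stimulation, which shares the chronic libraries, Gabarapl2 was higher (0.60) and Gabarapl1 lower (-0.92). They were the only called genes of this list, beside 9.93% higher and 7.65% lower over all genes. Against acute libraries Atg7 was higher (0.37) and Atg16l1 lower (-0.39), the former without a call under each of the other 3 scalings (adjusted p = 0.968, 0.888 and 0.247), under which 0 genes were higher and 7, 7 and 2 lower. Over all 15942 genes tested, 4965, 4542 and 3151 were called lower under these scalings.

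A list of 16 quiescence and IL-7 response genes, which mark resting lymphocytes, had 10 lower and 5 higher under chronic stimulation (15.9% and 18% of all genes). Its median log2 fold change was -0.83, and 11 were lower and 4 or 5 higher under the other 3 scalings. Over all 15942 genes 6846 were called lower with library totals, 6713 as deposited and 3759 without the ribosomal RNA-like rows. Higher calls over all genes numbered 1096, 1134 and 2096. The list's largest falls were in S1pr1, the receptor for exit from lymph nodes (-3.77), and Klf2, the factor that drives it (-3.01), and the largest rises in the growth inhibitors Tob1 (1.44) and Btg2 (1.26). Against chronic libraries 6 of the list were higher with MEK inhibition (9.93% of all genes), led by Klf2 (2.41) and the stem-like T cell factor Tcf7 (1.56). Another 4 were lower (7.65% of all genes), among them Il7r (-1.01) and Satb1 (-0.99). Il7r (0.88) and Satb1 (1.01) were called higher in chronic than in acute libraries, and both comparisons share the chronic libraries. Against acute libraries 3 of the list were higher with MEK inhibition (2291 of all 15942 genes), led by Tob1 (1.61) and Btg2 (1.17), and 9 lower (11.5% of all genes), among them S1pr1 (-2.42). The lower ones numbered 11 to 13 under the other scalings. Over all 15942 genes 4965 were then lower with library totals, 4542 as deposited and 3151 without the ribosomal RNA-like rows.

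The members differed in how closely they followed one another across the 9 libraries. The Pearson correlation of each member with the mean of the other members was 0.991 for Gimap6, 0.987 for Gimap4, 0.948 for Gimap5, 0.920 for Gimap8 and 0.909 for Gimap7. It was 0.771 for Gimap3, 0.572 for Gimap1 and 0.227 for Gimap9. These are descriptions over 9 libraries in 3 groups, and the points share their groups and their scaling.

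Among 10736 candidate genes outside the cluster, the 10 whose pattern was most like the mean of the members included Btg1, Snx5, Tm9sf3, Stard5, Cyb5r4, Usp38, Cytip, Nol11 and Gmfb, with Pearson correlations from 0.993 down to 0.974 over the 9 libraries. Btg1, which restrains growth in resting lymphocytes, had a mean scaled gene-body signal of 6841 ± 339 over acute (SD, n = 3), 3042 ± 644 over chronic and 2480 ± 369 over MEK-inhibited libraries. Stard5, a lipid-binding protein gene whose locus overlaps Il16 on the opposite strand, averaged 3922 ± 120, 1831 ± 337 and 1798 ± 151, and Cytip, a regulator of lymphocyte adhesion, 12141 ± 611, 7331 ± 503 and 6111 ± 614. The correlation takes no account of the size of a change, and other genes named here fell by less. Snx5 averaged 15092 ± 218, 11790 ± 1100 and 11426 ± 568. Tm9sf3 averaged 7156 ± 363, 6077 ± 294 and 5754 ± 204, and Nol11 3404 ± 151, 2897 ± 179 and 2640 ± 90.4.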

How the data were processed

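The authors deposited signal per transcript in 2 tables, read from their names as gene body and pause region, in which low values were whole multiples of 1 step per library (0.764 to 1.06, within 0.01 of a step). Rows at 4 steps were more frequent than rows at 1 step (2958 against 1977 a library), so the signal was not treated as read counts. Per the submitters' processing notes, Trim Galore 0.6.10, STAR 2.7.0a, SAMtools 1.19.2, deepTools 0.1.9 and build mm10 were used, with their roles not given. The coordinates of the regions and the use of strand are not given in the sources used here. Every value column belonged to 1 of the 9 libraries.

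Of 118482 rows, 117346 matched GENCODE M21 with their version and 383 without it, and 753 did not match. Each gene was represented by its row of highest mean gene-body signal. Libraries were scaled by a trimmed mean of log ratios without weights (30% of ratios and 5% of levels trimmed from each end). Genes with at least 50 in at least 3 libraries entered 1 model of 3 groups (limma 3.58.1 with intensity trend and robust moderation, R 4.3.3) on log2(signal + 5), and p-values were adjusted over all genes tested by Benjamini and Hochberg (threshold 0.05). The pause-to-body ratio used the same model on the difference of the 2 log2 values. Scripts were tested on simulated data.

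Members and gene lists were chosen with earlier results of these data known. Named are all members, tested genes within 200 kb, the 2 largest called rises and falls per list and comparison (all where 4 or fewer were called), and the 10 genes most like the family mean among those with a mean signal of at least 100, except for a few genes not reported here. Same-numbered libraries did not deviate together (correlations of gene-body deviations from -0.533 to 0.0979), so replicate numbers were not used as pairs. Differently numbered libraries of different groups ranged from -0.367 to 0.513, the highest for Acute replicate 2 with ChronicMEKi replicate 1. The model takes no account of this. The alternatives covered scaling, pseudocount, filter, moderation, row choice, groups in the fit, the replicate block and each library left out. Depth in reads is unknown, so no counting interval is given.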

Additional observations from a re-analysis of the deposited data

How the results depend on the processing

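The 6 gene-body falls of chronic against acute libraries, and the 6 of MEK-inhibited against acute libraries, were called under all 20 alternatives. Of the members' single gene-body and pause-region fold changes under these alternatives, 879 of 960 kept their direction and their side of the threshold.

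The count of members called for MEK inhibition against chronic stimulation in the gene body was 2, and it was 1 with library totals, the deposited scale, a pseudocount of 0.5 or plain moderation, 0 with no filter, and 1 to 4 with each library left out in turn. Over all 15942 genes calls numbered 2802, against 2510, 2700, 2773 and 2133 under those 4 settings. They were 1637 of 34470 with no filter. With each library left out they ranged from 2128 of 15856 to 3041 of 15748. The pause-region count for chronic against acute went from 6 to 3 under plain moderation and ranged from 3 to 6 with each library left out, and that for MEK inhibition against acute went from 5 to 2 under plain moderation. Pause-region calls over all genes in chronic against acute numbered 823, against 1723 with library totals, 494 with no filter and 556 under plain moderation. With each library left out they ranged from 545 to 750. For MEK inhibition against acute they numbered 457, against 232 under plain moderation.

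The values given next changed sign and were not themselves called. In the gene body, chronic against acute, Gimap9 was -0.27 with library totals and -0.25 as deposited. For MEK inhibition against chronic, Gimap5 was 0.048 with totals and 0.072 as deposited and Gimap8 0.068 and 0.092, and in the pause region Gimap4 was 0.13 and 0.084 and Gimap5 0.11 and 0.055. With each library left out in turn, Gimap1 ranged from -0.19 to 0.037 in the gene body, chronic against acute. For MEK inhibition against chronic, Gimap5 ranged from -0.24 to 0.098 and Gimap8 from -0.14 to 0.048 in the gene body. In the pause region Gimap1 ranged from -0.29 to 0.27, Gimap3 from -0.14 to 0.30, Gimap4 from -0.31 to 0.15, Gimap5 from -0.25 to 0.017, Gimap7 from -0.52 to 0.021 and Gimap8 from -0.51 to 0.46. The cause was not tested.

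With the replicate block the members called in the gene body numbered 6, 2 and 7 in the 3 comparisons, and in the pause region 6, 0 and 6, where Gimap1 was added against acute libraries (adjusted p = 0.0459 and 0.0108). Over all genes the block gave 5497, 2956 and 4263 calls of 15942 in the gene body. In the pause region it gave 865, 260 and 514 of 7678. The block rests on shared numbers only.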
